A study of Arabidopsis thaliana with 6 samples.

Results

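Small RNA (sRNA) libraries labelled as rosette leaves were examined at the 10 genes that encode the microRNAs miR156 and miR157 in *Arabidopsis thaliana*. The genes are *MIR156A* to *MIR156F* and *MIR157A* to *MIR157D*. Their sRNA was read from the deposited clusters, intervals of the genome for which the authors gave read counts. A cluster with at least 1 base inside the TAIR10 span of a gene was set to that gene. By this rule 7 of the 10 genes had a cluster, 1 cluster each, so that 7 of 17131 clusters were members.

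MicroRNAs are short RNAs that a Dicer enzyme cuts from a folded precursor, the hairpin, and that direct an Argonaute protein to complementary mRNA. In plants miR156 and miR157 are known for timing vegetative phase change, the passage from juvenile to adult leaves. They repress *SPL* genes, which encode squamosa promoter-binding protein-like transcription factors that promote adult leaf traits and flowering. The miRNA level is high in young shoots and declines with age, and the SPL proteins then raise transcription of *MIR172* genes, whose product represses *AP2*-like genes that delay flowering. *MIR156A*, *MIR156C*, *MIR157A* and *MIR157C* are known as main sources of these miRNAs in *Arabidopsis* shoots.

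The study grew plants of the Col-0 ecotype and froze tissue when the plants bolted. The labels name this tissue rosette leaves, while the methods of the study speak of whole plants, so the tissue is given here as labelled. Both groups carried a normal *MSH1* gene. The memory group held 2 first-generation *msh1* memory plants, which had lost an RNAi transgene against *MSH1*, a gene for an organelle protein, and had kept delayed flowering and slow growth. The wild type group held 4 plants. According to the study the memory plants were full sibs selected by phenotype from the progeny of a single transgenic plant, and the controls came from transformation events that were negative for the transgene. Family and memory cannot be told apart in this design, which holds no unaltered sib. Since memory plants flower late, plants frozen at bolting may also differ in age between the groups. The methods of the study give no age for these plants, so age and memory cannot be told apart either. The labels called each library a biological replicate. With no mRNA in the tables, the leaf label could not be checked against marker transcripts.

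The libraries held 7966799 to 18134284 counts, and 3 counts in a library corresponded to 0.202 to 0.491 CPM, counts per 1000000. CPM values refer to the TMM-scaled library size, which corrects for differences in composition between libraries. Clusters at ribosomal RNA genes took 30.7 to 40.8% of all counts, and the other clusters at annotated miRNA genes took 8.05 to 10.5%. In the fit across all clusters, 15659 clusters passed the filter on low counts, and the 7 members gave 6 of them.

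The mature sequences are printed because they decide which gene a read can be assigned to. They were read from the RefSeq TAIR10.1 genome at the annotated positions, 5′ to 3′, with bases 2 to 8, the seed, in capitals. All 6 *MIR156* genes carried the same 20 bases, and each copy matched the genome at 6 places, the 6 *MIR156* genes. *MIR157A*, *MIR157B* and *MIR157C* shared 21 bases, found at 3 places. The annotated miR157d was the same sequence without its first base, so its 20 bases were found at 4 places.
miR156a to miR156f, 5p: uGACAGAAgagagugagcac
miR157a to miR157c, 5p: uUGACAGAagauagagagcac
miR157d: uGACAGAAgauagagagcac
The 10 genes therefore gave 3 distinct mature sequences. The seed of miR156 and miR157d was GACAGAA, and that of miR157a to miR157c was UGACAGA, which is the same stretch moved by the extra first base. Counted from the 5′ end of the 20-base form, miR157d differed from miR156a by G11U and U14A, both outside the seed.

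The opposite arm of the hairpin differed between most genes, so that a read from it can be placed. RefSeq annotated a 3p sequence at 8 of the 10 genes, in 7 distinct forms. Of these 8 annotations, 6 matched the genome once, and those of *MIR157A* and *MIR157B* were identical and matched at both genes. The 3p forms of the genes with a cluster are shown with the same capitals.
miR156b-3p: uGCUCACCucucuuucugucagu
miR156c-3p: gCUCACUGcucuaucugucaga
miR156d-3p: gCUCACUCucuuuuugucauaac
miR157a-3p and miR157b-3p: gCUCUCUAgccuucugucauc
miR157c-3p: gCUCUCUAuacuucugucacc

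The tables gave 1 count per interval, without read sequence, length or strand, so the 5p and 3p reads of a cluster could not be separated. The study describes its search for changed sRNA clusters as one of siRNA-sized reads, which are longer than these miRNAs. Whether the deposited counts were limited to such reads is not stated, so the values are sRNA levels at the genes and cannot be read as levels of the mature miRNA. The authors aligned with ShortStack, which in its default mode places a read with several matches according to the uniquely placed reads nearby. Counts at single genes that share a mature sequence therefore depend on that placement, and a sum covers only the genes with a cluster. The *MIR156* sum held 3 of the 6 genes that share the sequence, so a read placed at *MIR156A*, *MIR156E* or *MIR156F* is in no sum, and the sums depend on the placement too. The share of the 21-base windows of a hairpin that occurred once in the genome was 51.3% for *MIR157A* and 55.4% for *MIR157B*. It was 73.8 to 95.5% for the other 8 genes.

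Every member cluster covered the annotated mature 5p sequence of its gene. *MIR156B* (AT4G30972) lay on chromosome 4, strand +, and its cluster, Cluster_13097, covered chr4:15074918-15075074, which is 157 bases and within the gene span. The same bases are annotated as the non-coding RNA gene AT4G30975. *MIR156C* (AT4G31877, strand -) had Cluster_13114 at chr4:15415340-15415881, of 542 bases. *MIR156D* (AT5G10945, strand -) had Cluster_13732 at chr5:3456573-3457354, of 782 bases, and all of this cluster also lay in the annotated gene AT5G10946. Since no strand was given, reads of these overlapping annotations cannot be told apart.

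*MIR157A* (AT1G66783, strand -) had Cluster_3604 at chr1:24912819-24913340, of 522 bases, of which 159 also lay in the non-coding gene AT1G08847. *MIR157B* (AT1G66795, strand +) lay 7786 bases from *MIR157A* on the opposite strand and had Cluster_3606 at chr1:24921053-24921198, of 146 bases. *MIR157C* (AT3G18217, strand -) had Cluster_7819 at chr3:6244523-6244718, of 196 bases. *MIR157D* (AT1G48742, strand -) had Cluster_2628 at chr1:18026757-18027143, of 387 bases. *MIR156A* (AT2G25095), *MIR156E* (AT5G11977) and *MIR156F* (AT5G26147) had no cluster, so no count can be given for them.

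**Figure D1:**
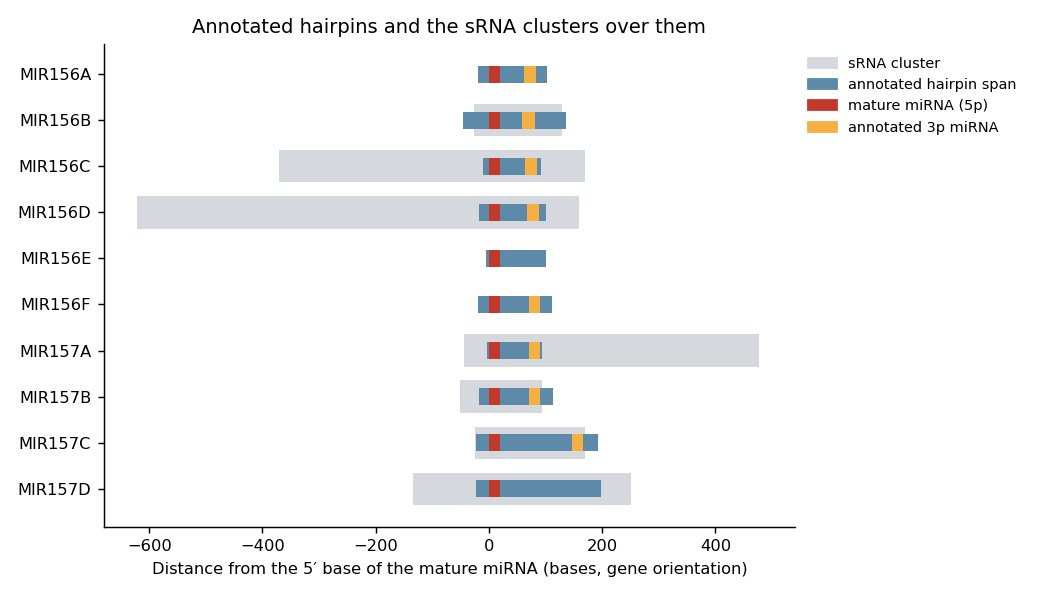
Extent of the sRNA cluster (grey), the annotated hairpin (blue), the mature 5p miRNA (red) and the annotated 3p miRNA (yellow) at the 10 genes, drawn to scale against the distance in bases from the 5′ base of the mature miRNA. All 7 clusters covered the mature miRNA, those of *MIR156B*, *MIR157B* and *MIR157C* were close to the size of the hairpin, and *MIR156A*, *MIR156E* and *MIR156F* had none.

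Among the 6 members with counts, *MIR157C* and *MIR156B* held most sRNA and *MIR157D* held least. At *MIR157C* the wild type libraries had 7133, 7179, 7160 and 8168 counts, or 481, 518, 624 and 720 CPM in replicates 1 to 4. The memory libraries had 6410 and 3891 counts, or 501 and 636 CPM. Both memory values lay inside the wild type range. The means were 586 ± 108 CPM (SD, n = 4) in wild type and 569 ± 95.8 CPM (SD, n = 2) in memory. The log2 fold change, memory over wild type, was -0.04 with an SE of 0.23, and the adjusted p was 0.964 in edgeR's quasi-likelihood test.

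At *MIR156B* wild type had 4895, 2921, 2806 and 3797 counts, or 330, 211, 244 and 335 CPM. The memory libraries had 2716 and 2036 counts, or 212 and 333 CPM. The memory values lay near both ends of the wild type range, 1 at the low end and 1 at the high end. The fitted log2 fold change was -0.04, with an SE of 0.28 and an adjusted p of 0.973.

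At *MIR156D* wild type had 3140, 1868, 1644 and 1971 counts, or 212, 135, 143 and 174 CPM. The memory libraries had 2915 and 1076 counts, or 228 and 176 CPM. The first memory library was above all wild type libraries and the second was within them. The means were 166 ± 34.9 CPM (SD, n = 4) and 202 ± 36.6 CPM (SD, n = 2), and the log2 fold change was 0.28 with an SE of 0.23 and an adjusted p of 0.664.

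At *MIR156C*, a gene known as a main source of miR156, counts were far lower. Wild type had 196, 157, 145 and 274 counts, or 13.2, 11.3, 12.6 and 24.2 CPM. The memory libraries had 156 and 102 counts, or 12.2 and 16.7 CPM. The fourth wild type library was the highest of the 6, and the groups overlapped. The fitted log2 fold change was -0.09, with an SE of 0.36 and an adjusted p of 0.946.

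*MIR157A* had, of the members with over 1 CPM, the fold change farthest from 0. Wild type had 1050, 1142, 1750 and 1305 counts, or 70.8, 82.4, 152 and 115 CPM. The memory libraries had 810 and 472 counts, or 63.3 and 77.2 CPM. Replicates 1 and 2 of wild type were close to the memory libraries, and replicates 3 and 4 were above them. The means were 105 ± 36.7 CPM (SD, n = 4) and 70.2 ± 9.83 CPM (SD, n = 2). The log2 fold change of -0.58 ± 0.33 (SE) did not pass the test, with an adjusted p of 0.561.

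*MIR157B*, whose mature and 3p miRNAs are the same as those of *MIR157A*, had 0 counts in all 6 libraries, although the deposited tables listed its cluster. A count of 0 allows up to 0.202 to 0.491 CPM per library, or 0.0426 CPM over all 6 libraries together. Of 17131 clusters, 83 had 0 counts in every library. The hairpins of *MIR157A*, *MIR157B* and *MIR157C* are printed as RefSeq spans in gene orientation, because reads of *MIR157A* and *MIR157B* can be separated only where these differ. The annotated 5p and 3p miRNAs are in capitals.
*MIR157A*: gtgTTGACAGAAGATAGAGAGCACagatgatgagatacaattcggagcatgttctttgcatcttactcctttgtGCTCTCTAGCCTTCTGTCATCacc
*MIR157B*: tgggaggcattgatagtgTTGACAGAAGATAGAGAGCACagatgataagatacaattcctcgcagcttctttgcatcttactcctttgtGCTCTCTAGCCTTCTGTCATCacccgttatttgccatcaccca
*MIR157C*: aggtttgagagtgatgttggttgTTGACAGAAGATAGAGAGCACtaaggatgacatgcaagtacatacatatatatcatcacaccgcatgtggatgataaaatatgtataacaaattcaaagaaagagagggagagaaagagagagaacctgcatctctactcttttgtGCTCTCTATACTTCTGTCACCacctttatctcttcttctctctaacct
From the start of the 5p to the end of the 3p miRNA, *MIR157A* and *MIR157B* were 92 bases each and differed by 6 mismatches or gaps, none of them in the annotated miRNAs. The counts of *MIR157A* may therefore hold reads of *MIR157B*.

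*MIR157D*, whose 20-base miRNA lies within that of the other *MIR157* genes, had 0, 14, 1 and 18 counts in wild type, and memory had 0 and 0. The wild type counts came almost wholly from replicates 2 and 4, and the first wild type library was at 0 like the memory libraries. Pooled over the wild type libraries the 33 counts gave 0.641 CPM, against a floor of 3 counts over the memory group, 0.159 CPM. Against this floor the pooled memory level was at least 4.04-fold lower than the pooled wild type level, while the groups overlapped. The bound takes no account of the spread between plants. The bound was 2.35-fold without wild type replicate 4 and 1.31-fold without memory replicate 1. The adjusted p was 0.546, and the fitted fold change depends on the prior count and is no bound.

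**Figure D2:**
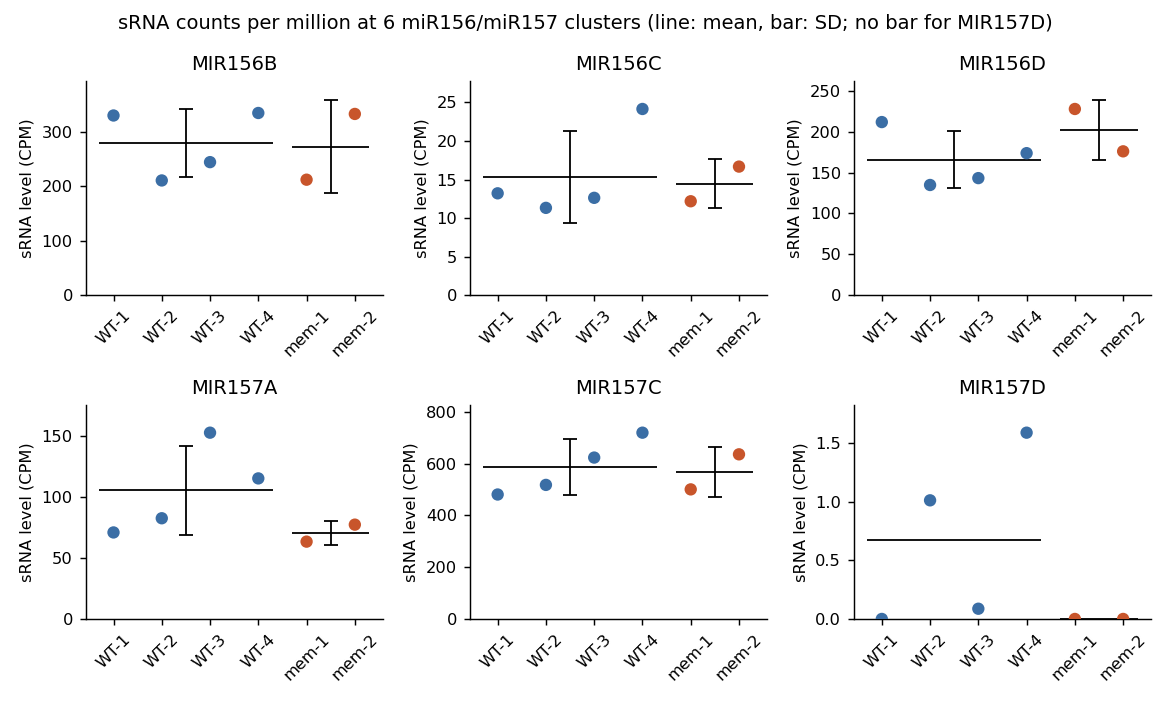
sRNA level in CPM of the TMM-scaled library size at the 6 clusters that were tested, for wild type replicates 1 to 4 (blue, WT) and memory replicates 1 and 2 (orange, mem). Lines are group means and bars the SD, which is left out for *MIR157D*. The 2 groups overlapped at each of the 6 genes, and *MIR157D* was at 0 in both memory libraries.

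Of the 6 tested members, 0 passed an adjusted p of 0.05 in edgeR's quasi-likelihood test, beside 0.00639% of all tested clusters, which is 1 of 15659. At an unadjusted p below 0.05 the members gave 0 of 6, beside 10.5% of all tested clusters. DESeq2 also called 0 of the 6, where *MIR157D* got no adjusted p, beside 1.88% of the clusters to which it gave one. In 0 of 6 did the memory and wild type values not overlap, beside 22.1% of all tested clusters. The fitted fold change was above 0 at *MIR156D* and below 0 at the other 5, under every scaling of the libraries tried. The median log2 fold change of the 6 was -0.07, also with *MIR157D* set at its bound, beside -0.03 over all tested clusters. Scaling by library size alone moved the median of all clusters to -0.23. Scaling by the counts at miRNA genes moved it to -0.33 with the rRNA clusters that overlap miRNA annotations kept in. Without those rRNA clusters it was -0.13.

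Divided by cluster width, the wild type levels were 2989 ± 551 CPM per kb at *MIR157C* and 1784 ± 395 at *MIR156B* (SD, n = 4). They were 212 ± 44.6 at *MIR156D*, 202 ± 70.2 at *MIR157A*, 28.3 ± 10.9 at *MIR156C* and 1.73 ± 1.97 CPM per kb at *MIR157D*. The neighbours *MIR156D* and *MIR157A* did not differ beyond their spread. The ranges of the other neighbours in this order did not overlap between the wild type libraries. The clusters of *MIR157C* and *MIR156B* were also the narrowest of the 6, and the mature miRNA covers a small part of each cluster. Among the 254 clusters at annotated miRNA genes, ranked by their mean share in wild type, *MIR157C* was at rank 25, *MIR156B* at 36, *MIR156D* at 44, *MIR157A* at 57, *MIR156C* at 131 and *MIR157D* at 241.

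The spread between wild type plants at each of the 5 members with over 1 CPM was above that of the median cluster. The coefficient of variation over the 4 wild type libraries was 38.7% at *MIR156C*, 34.9% at *MIR157A*, 22.2% at *MIR156B*, 21% at *MIR156D* and 18.4% at *MIR157C*. Its median was 14.1% over 5932 tested clusters with a mean of at least 10 CPM, with quartiles of 8.83 and 24.0%. Over the 148 clusters at miRNA genes of that level the median was 17.9%.

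Summed over the genes, the sRNA levels overlapped between the 2 groups. The 3 clusters of *MIR156* genes gave 555, 357, 400 and 533 CPM in wild type and 452 and 526 CPM in memory. The means were 461 ± 97.4 CPM (SD, n = 4) and 489 ± 51.9 CPM (SD, n = 2), a ratio of 1.06. It fell below 1 when libraries were scaled by size alone, with a log2 ratio of -0.12. Scaled by the counts at miRNA genes, the log2 ratio was -0.20 with the rRNA clusters kept in and -0.03 without them. The clusters of *MIR157* genes gave 552, 602, 776 and 837 CPM in wild type and 564 and 714 CPM in memory. Their means were 692 ± 136 CPM (SD, n = 4) and 639 ± 106 CPM (SD, n = 2), a ratio of 0.924, whose log2 value of -0.11 turned to 0.06 without memory replicate 1 and to 0.14 on the libraries numbered 1 and 2. All 7 clusters together gave 1107, 959, 1177 and 1369 CPM in wild type and 1016 and 1239 CPM in memory, a ratio of means of 0.978. Its log2 value of -0.03 turned to 0.06 without wild type replicate 4, to 0.11 without memory replicate 1 and to 0.12 on the libraries numbered 1 and 2. In each of these sums both memory values lay within the wild type range. No test was made on the sums.

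As a share of the counts at miRNA genes, which uses no scaling factor, the 7 clusters took 1.09, 1.22, 1.43 and 1.39% in wild type. They took 1.34 and 0.945% in memory. The second memory library was below and the first within the wild type range. Such shares also depend on the counts at the other miRNA genes. The cluster of *MIR398A* alone took 21.4, 16.7, 15.0 and 19.7% of the counts at miRNA genes in wild type and 24.3 and 28.9% in memory. For the members in the second memory library the 95% Wilson interval of the share was 0.924 to 0.966%. These intervals, like the floors, cover counting error only, since PCR reads without molecular identifiers are not independent molecules.

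**Figure D3:**
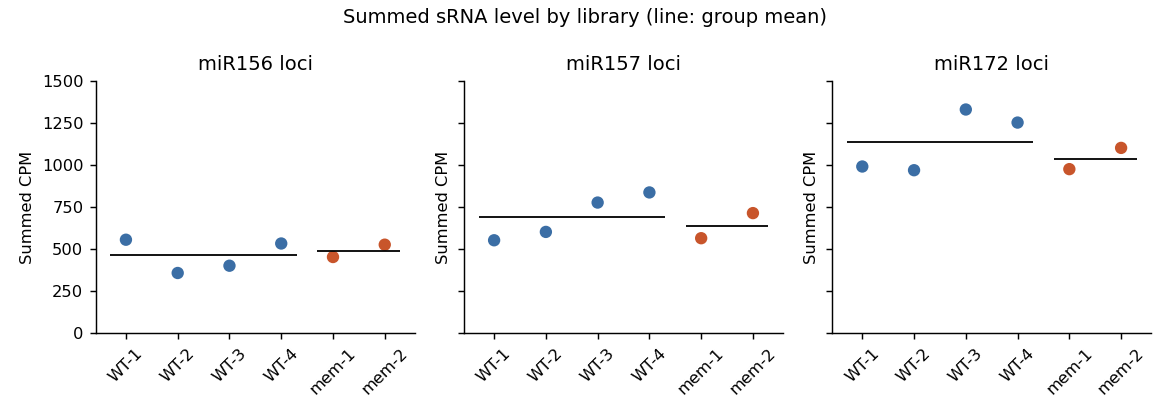
Summed CPM of the *MIR156* clusters, the *MIR157* clusters and, for comparison, the *MIR172* clusters in wild type replicates 1 to 4 (blue) and memory replicates 1 and 2 (orange), with lines at the group means. In all 3 panels both memory values lie within the wild type range, for example 564 and 714 CPM against 552 to 837 CPM for miR157.

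The composition of the member counts was similar across libraries for the 2 most abundant genes. *MIR157C* took 43.5 to 54.1% of the member counts, with means of 50.8 ± 4.92% (SD, n = 4) in wild type and 50.3 ± 1.46% (SD, n = 2) in memory. *MIR156B* took 24.3 ± 4.01% and 23.9 ± 4.24%. *MIR156D* took 14.5 ± 3.18% in wild type and 22.4 and 14.2% in the memory libraries. The 95% Wilson intervals of these shares had a half-width of at most 1.13 percentage points.

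*MIR157A* took 6.40, 8.60, 13.0 and 8.40% of the member counts in wild type and 6.23% in both memory libraries, so that its shares did not overlap between the groups. The first wild type library was above the memory libraries by less than the largest half-width of a Wilson interval at this gene over all libraries, 0.566 percentage points. The ratio of *MIR157A* to *MIR157C* counts was 0.147, 0.159, 0.244 and 0.160 in wild type and 0.126 and 0.121 in memory. These ratios did not overlap, but they are not independent of the shares, since *MIR157C* held much of the member counts. The CPM values at *MIR157A* did overlap, and at 22.1% of all tested clusters the CPM values of the groups did not. The ratios also depend on where reads of the shared 5p sequence were placed. No test was made on shares or ratios. The ratio of *MIR156D* to *MIR156B* counts was 1.07 in the first memory library, and 0.519 to 0.641 in wild type and 0.528 in the second memory library.

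**Figure D4:**
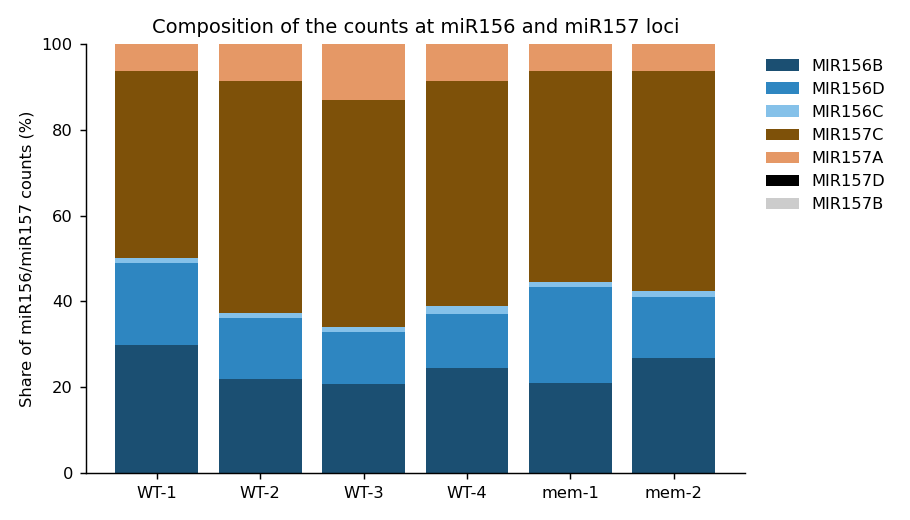
Share in percent of the counts at miR156 and miR157 clusters held by each gene, 1 bar per library (WT, wild type; mem, memory). *MIR157C* (brown) took 43.5 to 54.1% in each library, *MIR157A* (light orange) took 6.40 to 13.0% in wild type and 6.23% in memory, and *MIR157D* and *MIR157B* are too small to be seen.

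The members differed in how they varied across the 6 libraries. As a description, Pearson's r of log2(CPM + 0.5) was 0.81 between *MIR156C* and *MIR157C*, 0.74 between *MIR156B* and *MIR156C* and 0.69 between *MIR157A* and *MIR157C*. It was -0.65 between *MIR156D* and *MIR157A* and -0.36 between *MIR156D* and *MIR157C*. All points share the scaling factor of their library. Among 143 other clusters at miRNA genes with a mean of at least 10 CPM, the 5 most like the summed members over the 6 libraries were those of *MIR170* (r = 0.93), *MIR171b* (0.86), *MIR169f* (0.83), *MIR844* (0.80) and *MIR159c* (0.79).

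The *SPL* genes were read for sRNA at the site that miR156 pairs with. For the 11 *SPL* genes known as targets the best match to the complement of the 20 bases of miR156 is printed, since it shows how far these sites agree. They are RNA letters, 5′ to 3′, with mismatches to that complement in capitals.
*SPL2*, *SPL6*, *SPL9*, *SPL10*, *SPL11*, *SPL13A*, *SPL13B* and *SPL15*: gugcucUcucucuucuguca
*SPL3*: UugcuUacucucuucuguca
*SPL4*: CugcucUcucucuucuguca
*SPL5*: CCgcucUcucucuucuguca
The first 8 genes shared 1 site, which lay in a coding exon, while the sites of *SPL3*, *SPL4* and *SPL5* lay in an untranslated part of an exon. The best matches in the 6 other *SPL* genes of the list had at least 6 mismatches.

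A cluster covered the site in 3 of the 11 target genes. At *SPL2*, Cluster_16074 (chr5:17358341-17361398) shared 1112 bases with the gene, and most of it lay outside. Its reads can therefore not be assigned to *SPL2* or to the site. The cluster had 38.4, 41.7, 37.2 and 36.7 CPM in wild type and 45.8 and 52.7 CPM in memory. Both memory values were above all wild type values, while at 22.1% of all tested clusters the groups did not overlap in either direction. The log2 fold change was 0.35 ± 0.13 (SE), and it did not pass the adjusted test, with an unadjusted p of 0.031 and an adjusted p of 0.456. *SPL9*, an activator of *MIR172B*, had 36, 27, 0 and 0 counts in wild type, and memory had 13 and 0 at Cluster_7043. RefSeq annotates *MIR156j* on the strand opposite to *SPL9* at that site, so the reads cannot be assigned to either. *SPL10* had 21, 28, 0 and 1 counts in wild type, and memory had 0 and 0 at Cluster_1025. At *SPL9* and *SPL10* most counts came from the first 2 wild type libraries. The shared site occurs at 8 places in the genome, so a read of the site alone could be placed at either gene. Counts at these 2 genes are therefore not independent of placement. Together the target genes gave 3 tested clusters, 1 above and 2 below 0, with a median log2 fold change of -0.93, also with *SPL10* at its bound, and 0 called. The 6 other *SPL* genes gave 6 tested clusters, at *SPL1*, *SPL12* and *SPL14*, all below 0 with a median of -0.43, and 0 called.

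Of the 5 *MIR172* genes, which act after the *SPL* genes in this pathway, 4 had a cluster, and *MIR172B* held nearly all counts. The mature sequences of these genes were not compared, so whether read placement affects this split was not tested. *MIR172B* had 1130 ± 181 CPM (SD, n = 4) in wild type and 1029 ± 95.3 CPM (SD, n = 2) in memory. Its log2 fold change was -0.13 with an SE of 0.22 and an adjusted p of 0.851 in edgeR's quasi-likelihood test. The summed *MIR172* clusters gave 991, 969, 1330 and 1253 CPM in wild type and 975 and 1102 CPM in memory. The counts at *MIR172* over those at the miR156 and miR157 members gave a ratio of 0.895 to 1.13 in wild type and 0.960 and 0.889 in memory.

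Of the other genes of the pathway, *MIR156H* had 31, 22, 16 and 36 counts in wild type, and memory had 3 and 31, and *MIR156G* had no cluster. The *MIR156H* cluster shared 106 bases with that gene and 228 with the protein-coding gene AT5G55830, so its reads cannot be assigned to either. Of 6 *AP2*-like genes only *TOE1* had clusters, with 2 tested and 0 called. Of 6 genes for miRNA production, *DCL1*, the Dicer that cuts miRNA precursors, and *AGO1*, the main miRNA Argonaute, had clusters. The *DCL1* cluster with the most counts also overlaps *MIR838*, a miRNA gene inside *DCL1*. These genes gave 5 tested clusters with a median log2 fold change of 0.27 and 0 called. Over all lists, 14 of 36 genes had a cluster, 20 clusters were tested, 0 were called and 1, at *SPL2*, had an unadjusted p below 0.05, beside 0.00639% and 10.5% of all tested clusters. Of the 20 clusters, 10 had a fold change above 0.

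**Figure D5:**
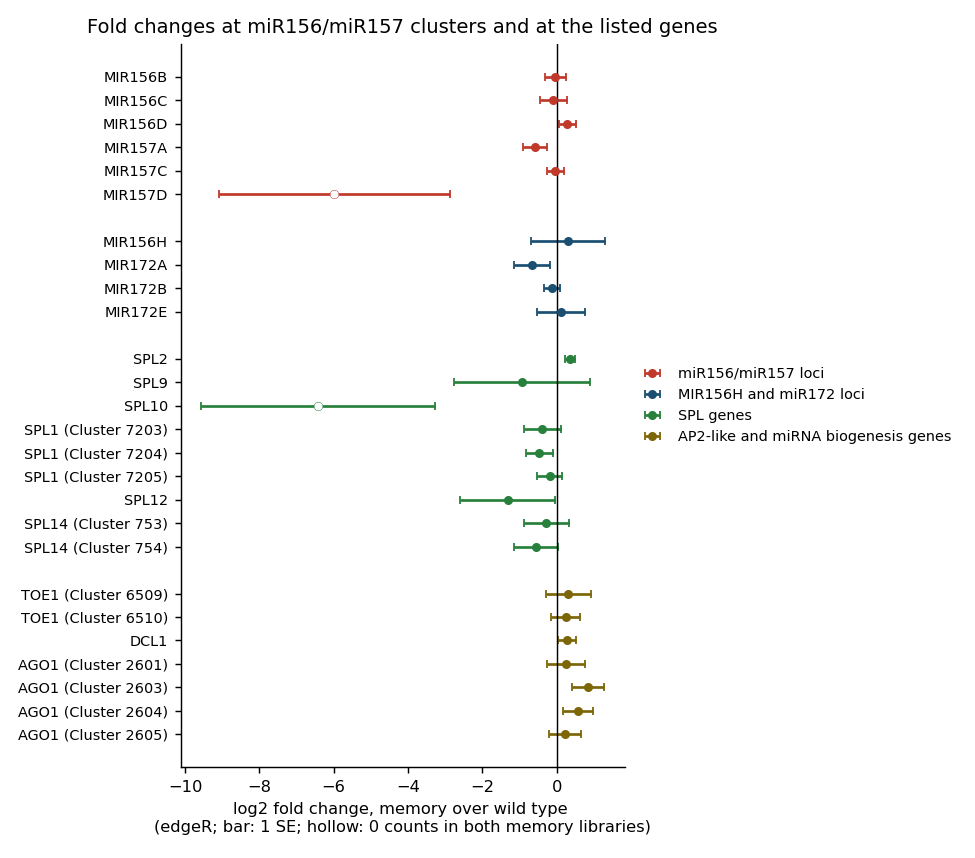
log2 fold change, memory over wild type, from edgeR for the 6 tested members (red) and the 20 tested clusters of the listed genes, with bars of 1 SE. The members other than *MIR157D* lie between -0.58 and 0.28, and the hollow points of *MIR157D* and *SPL10*, with 0 counts in both memory libraries, depend on the prior count of the fit.

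The nearest clusters within 10 kb of the members, on either side and not overlapping them, numbered 13. All were tested, 0 were called and 0 had an unadjusted p below 0.05, beside 0.00639% and 10.5% of all tested clusters. The closest, Cluster_7818, ended 77 bases from *MIR157C*. It had 1, 459, 103 and 431 counts in wild type, and memory had 725 and 285, or 0.0674, 33.1, 8.97 and 38.0 CPM against 56.7 and 46.6 CPM. Both memory values were above all wild type values, while at 22.1% of all tested clusters the groups did not overlap in either direction. The wild type libraries spread so widely that the log2 fold change of 1.37 had an SE of 1.38 and an adjusted p of 0.735. In the first wild type library, where this neighbour had 1 count, *MIR157C* had 481 CPM, its lowest value of all libraries. *MIR156A*, without a cluster of its own, had its nearest one 1035 bases away, at 41.3 to 56.7 CPM in wild type.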

How the data were processed

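The labels gave 4 wild type and 2 memory libraries of sRNA, and all were used. The authors aligned reads to TAIR10 with ShortStack, each library alone, and merged the alignments with SAMtools. The authors deposited unscaled integer counts of reads for each cluster. The way clusters were set and reads counted is not given in the sources used here. The study describes a search among siRNA-sized reads, without saying whether these counts were limited to them.

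The test was edgeR's quasi-likelihood model (edgeR 4.0.16, R 4.3.3) with TMM scaling, filterByExpr, group alone in the design, all 6 libraries and Benjamini-Hochberg adjustment over all 15659 tested clusters. An adjusted p below 0.05 was a call. SE is the absolute log2 fold change over the square root of F. DESeq2 1.42.0 was an alternative. Correlations used log2(CPM + 0.5). The test was tried on simulated data for memory against wild type: of 200 among 15248 clusters changed 8-fold, 82% were recovered, with 7 false calls. Dispersions in that simulation followed the fitted trend.

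Genes came from the RefSeq annotation of TAIR10.1, whose 5 nuclear chromosomes are those of TAIR10. Named were all 10 members, up to 4 genes with a cluster per pathway list, the nearest clusters within 10 kb and the 5 most alike miRNA clusters. *MIR5642a* and *MIR5642b*, annotated at the rRNA clusters, were left out of the miRNA gene counts and shares reported. The planned scaling to miRNA gene counts still held those rRNA clusters. The members and lists were chosen with earlier results of these data known. Alternatives covered scaling, filters, test, membership, each library left out and the replicate number as a block.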

Additional observations from a re-analysis of the deposited data

Results flagged for a closer look

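Of 50 sets of 4 wild type values tested with Dixon's limit, 6 had 1 library far from the others, and chance flags about 1 in 20, here 2.5. At *MIR156C* the fourth wild type library had 24.2 CPM, where the other 3 averaged 12.4 CPM. Cluster_13113, near *MIR156C*, was also flagged for that library, at 1.41 CPM against a mean of 1.10 CPM. Its wild type counts were only 16, 15, 13 and 16, and the memory libraries had 1.41 and 1.31 CPM. At Cluster_13733, near *MIR156D*, the first wild type library had 16.5 CPM against a mean of 0.145 CPM, and the second memory library, with 120 counts, was the only other one with over 5 counts. In the first wild type library the cluster at *SPL12* had 4.38 CPM against 0.506 CPM. At Cluster_2627, near *MIR157D*, the second wild type library had 4.33 CPM against 1.93 CPM. The ratio of *MIR157A* to *MIR157C* counts was 0.244 in the third wild type library, against a mean of 0.155 in the other 3.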

How the results depend on the processing

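In every setting tried, 0 members and 0 clusters of the pathway lists were called. The direction of *MIR156D*, *MIR157A* and *MIR157D* was kept in each setting that gave them a value, with log2 fold changes of 0.03 to 0.45, -0.94 to -0.13 and -6.34 to -4.99. At an unadjusted p below 0.05, *MIR157D* passed with edgeR's likelihood ratio test, and *MIR157A* and *MIR157D* passed without wild type replicate 1. Leaving out 1 library at a time gave -0.40 to 0.26 at *MIR156B*, -0.33 to 0.22 at *MIR156C* and -0.23 to 0.13 at *MIR157C*, so these 3 changed sign, and calls over all clusters went from 0 (without wild type replicate 2, 3 or 4, or memory replicate 2) to 5 without memory replicate 1 and 9 without wild type replicate 1. A lone memory library is assumed to vary like the wild type ones. Without wild type replicate 3, *MIR157A* was at -0.35.

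Calls over all clusters numbered 7 with library size alone, 3 with scaling to miRNA gene counts, 2 with at least 10 counts in every library, 245 with DESeq2 and 137 with the likelihood ratio test, against 1. Scaling to miRNA gene counts without the rRNA clusters, added after seeing the data, gave 7. The summed miR157 level had a log2 ratio of -0.46 with scaling to miRNA gene counts that held the rRNA clusters, and -0.27 without them. All loci together gave -0.35 with the rRNA clusters in that scaling, -0.17 without them and -0.27 with library size alone, against -0.03. The median of all clusters was then -0.33, -0.13 and -0.23. The summed miR156 level had log2 ratios of -0.03 to 0.20 with 1 library left out, the summed miR157 level -0.30 to 0.06 and all loci -0.19 to 0.11, so each sum changed sign. On the 4 libraries numbered 1 and 2 the sums had 0.10, 0.14 and 0.12.

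Same-numbered libraries had a correlation of deviations of -0.08 over 14986 clusters. With 2 pairs of libraries this cannot show whether the numbers pair plants. With the replicate block on the 4 libraries numbered 1 and 2, calls were 0, and without the block on the same libraries 0. With the block *MIR156B* was at 0.0078, *MIR156C* at 0.22 and *MIR157C* at 0.17, and without it at 0.0080, 0.23 and 0.18. At *MIR157B*, with 0 counts, a level under the floor of 3 counts could not be seen. At *MIR157D* and *SPL10* the floor limits the memory libraries, while wild type libraries ranged from 0 to 18 and from 0 to 28 counts, with 0 at *MIR157D* in the deepest library. The bound at *MIR157D* was 1.31 to 5.67-fold with 1 library left out, a range added after seeing the data.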

Other observations

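*MIR172D* had 4, 1, 6 and 3 counts in wild type, and memory had 94 and 4. Its cluster did not pass the filter on low counts and was not tested. *MIR172E* had 39, 19, 46 and 69 counts in wild type, and memory had 67 and 14. In the first memory library *MIR172D* was above *MIR172E* in counts, and in no other library was this so.

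Among the 236 tested clusters at miRNA genes, 0 were called in edgeR's quasi-likelihood test and 23 had an unadjusted p below 0.05, beside 10.5% of all tested clusters. Their median log2 fold change was -0.05, and 129 were below 0.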
